A study of Rattus norvegicus with 6 samples.

Results

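TGF-beta signalling was described here through 10 genes, chosen by name from the deposited expression table of rat sciatic nerve. They are the ligand genes Tgfb1, Tgfb2 and Tgfb3, the receptor genes Tgfbr1, Tgfbr2 and Tgfbr3, the genes Ltbp1 and Ltbp2 of the latent TGF-beta binding protein family, and the responsive genes Tgfbi and Smad7. Each symbol matched 1 row, so 10 of 21028 gene models are described. The tissue was sciatic nerve of 6 wild-type female rats, in which a conduit bridged a defect of the nerve, and its polyadenylated RNA was sequenced. In the PCL group, 3 rats carried a PCL conduit and got no ultrasound. In the PLLARS_US group, 3 rats carried a PLLARS conduit and were given ultrasound. Conduit material and ultrasound differed together, so their contributions cannot be told apart, and there was no uninjured nerve among the libraries. The sources used here give neither age nor the time after surgery. The 6 rats gave 6 libraries.

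TGF-beta ligands are secreted in a latent form, folded with their own propeptide and, in most cells, tethered to the extracellular matrix by a latent TGF-beta binding protein. Once released, the ligand binds the type II receptor, which recruits and phosphorylates the type I receptor, and SMAD2 and SMAD3 then carry the signal to the nucleus. In injured peripheral nerve the ligands come from macrophages, fibroblasts and Schwann cells, and the pathway is known for driving matrix deposition and for its action on repair Schwann cells.

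The deposited unit was FPKM, which scales fragments to gene model length and library depth, so levels of different genes can be compared. The spacing of low FPKM values in small single-exon models placed the depth between 15320000 and 16680000 fragments a library. Schwann cell lineage markers marked all libraries as nerve, with 7 of 8 in the table, none at 0, and summed levels of 359 to 793 FPKM with PCL conduits and 363 to 1254 with PLLARS conduits. PCL replicate 3 and PLLARS_US replicate 1 stood apart. Their skeletal muscle markers had a mean log2(FPKM + 1) of 9.19 and 9.99, against 1.19 to 7.52 in the other 4 libraries, and their fibroblast markers 7.53 in each, against 8.23 to 8.39. They are called the muscle-rich libraries below, which is a label only, since the other 4 were not alike in muscle markers. PCL replicate 2 (6.38) and PLLARS_US replicate 3 (7.52) lay well above PCL replicate 1 (2.94) and PLLARS_US replicate 2 (1.19). Myelin markers, 8 of 8 in the table, divided the libraries differently. Their mean log2(FPKM + 1) was 3.82 in PCL replicate 1 and 3.92 in PLLARS_US replicate 2, against 7.05 to 7.45 in the remaining libraries. In bulk tissue fewer cells of a type and less RNA per cell cannot be told apart.

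None of the 10 genes passed the test between the groups. With limma on log2(FPKM + 1) and Benjamini-Hochberg adjustment over 13720 genes, their adjusted p ran from 0.793 to 0.983, and 0 of 10 had even an unadjusted p under 0.05, a level reached by 7.00% of all tested genes. Over all genes 0 passed the adjusted threshold (0%) with limma, 960 had an unadjusted p under 0.05, and limma with array weights called 118. Those 960 split into 273 higher (1.99%) and 687 lower (5.01%) in the PLLARS_US group, and under median-ratio scaling 932 split into 425 and 507. The median log2 difference of the 10 genes was -0.14 (quartiles -0.27 and 0.14), beside -0.04 (-0.22 and 0.13) for all tested genes. In 1 of the 10, Tgfb1, the PLLARS_US libraries all lay below the PCL ones, and groups without overlap, in either direction, were found in 14.4% of all tested genes (4.33% with the PLLARS_US group higher). The ratio of the highest to the lowest of the 6 libraries reached 6.64 in Tgfbr1 and was least in Tgfbr2, at 1.33.

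**Figure D1:**
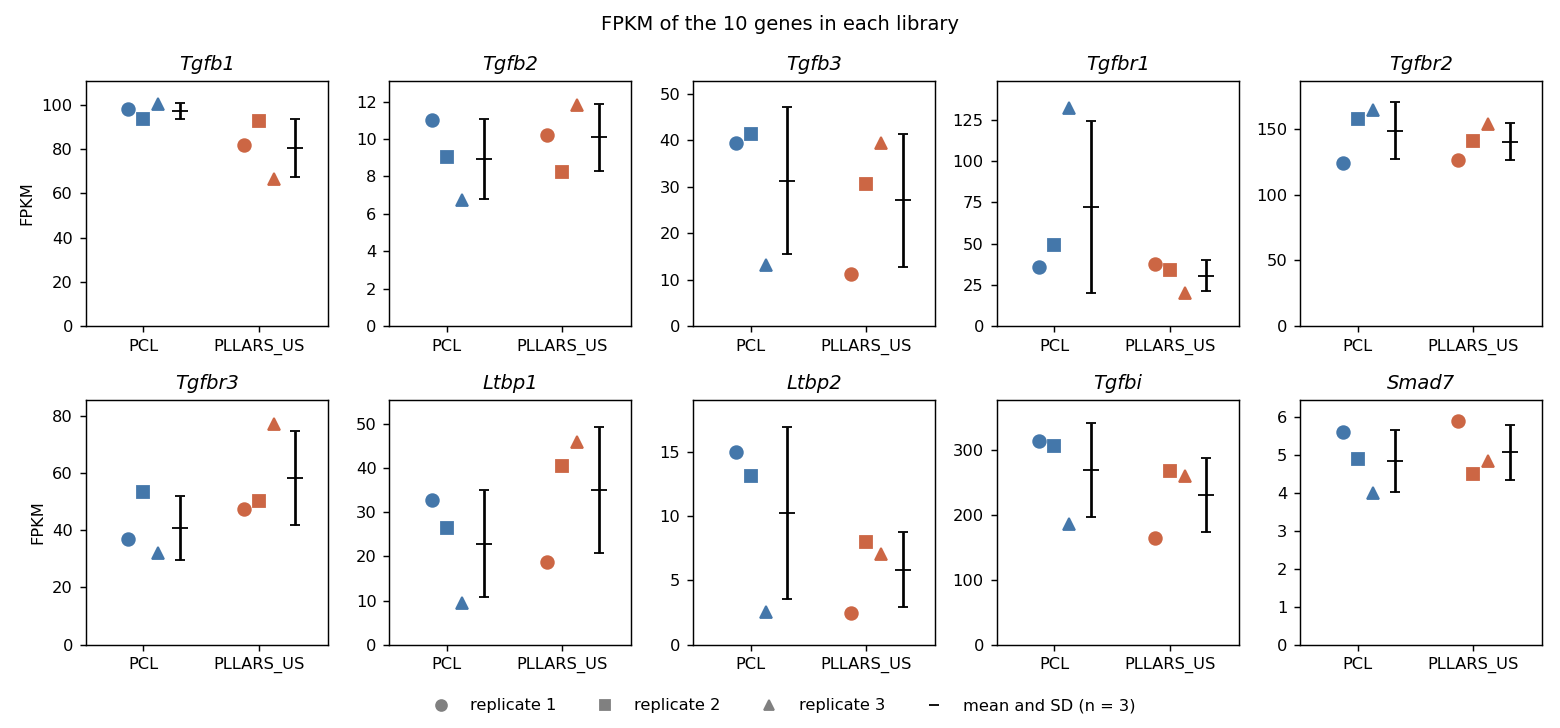
FPKM (linear axis from 0) of each of the 10 genes, 1 point per library with the replicate number shown by the shape of the point, and the mean and SD of 3 libraries beside each group. Tgfb1 is the gene whose groups do not overlap, Tgfbr1 has its outlying value in PCL replicate 3, and Tgfb3, Ltbp1, Ltbp2 and Tgfbi are low in PCL replicate 3 and PLLARS_US replicate 1.

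By mean FPKM over the 6 libraries the order was Tgfbi (250.2), Tgfbr2 (144), Tgfb1 (88.9), Tgfbr1 (51.4), Tgfbr3 (49.5), Tgfb3 (29.2), Ltbp1 (29.0), Tgfb2 (9.51), Ltbp2 (8.02) and Smad7 (4.94). Tgfbi stood above Tgfbr2, Tgfbr2 above Tgfb1 and Ltbp1 above Tgfb2 in 6 of 6 libraries. The other neighbours changed places in at least 1 library: Tgfbr1 exceeded Tgfbr3 in 1 of 6 although its mean was higher, and Tgfb3 exceeded Ltbp1 in 3 of 6.

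Among the ligands, Tgfb1 encodes the isoform that macrophages and many other cells secrete after injury. The gene (ENSRNOG00000020652) is placed by the authors at 82480195 to 82497199 of chromosome 1, plus strand, on a build that the files do not settle. Its FPKM was 98.1, 93.5 and 100.5 in PCL replicates 1 to 3 and 81.8, 92.8 and 66.7 in PLLARS_US replicates 1 to 3. The PCL values lay close together, PLLARS_US replicate 3 was lowest, and the groups were separated only by the small step between PLLARS_US replicate 2 and PCL replicate 2. The means were 97.3 ± 3.57 and 80.4 ± 13.1 FPKM (SD, n = 3 each). On log2(FPKM + 1) the difference was -0.28 (95% interval -0.66 to 0.09, limma adjusted p 0.813). An exact permutation test, two-sided, gave 0.1, the smallest p that 3 against 3 libraries allow. Under median-ratio scaling of the libraries the groups overlapped.

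Tgfb2, the isoform best known from development, was the ligand with the lowest level. Its FPKM was 11.0, 9.06 and 6.73 in PCL replicates 1 to 3 and 10.2, 8.25 and 11.8 in PLLARS_US replicates 1 to 3. The groups overlapped throughout, with a log2 difference of 0.17 (95% interval -0.35 to 0.69). It was 0.00061 without PCL replicate 3 and 0.32 without PCL replicate 1.

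Tgfb3, the isoform linked in other tissues to repair with little scarring, split the libraries in another way. It stood at 39.3, 41.4 and 13.1 FPKM in PCL replicates 1 to 3 and at 11.3, 30.5 and 39.4 in PLLARS_US replicates 1 to 3. The low values were those of the muscle-rich libraries, 1 in each group, and the other 4 lay between 30.5 and 41.4. The log2 difference between groups was -0.21 (95% interval -1.68 to 1.26), and it was 0.30 without PLLARS_US replicate 1.

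Taking the ligand mRNAs as parts of their sum removes the scaling of the library. Tgfb1 made up 66.1%, 64.9% and 83.5% of the ligand FPKM in PCL replicates 1 to 3 and 79.2%, 70.5% and 56.6% in PLLARS_US replicates 1 to 3. Tgfb1 was thus the main ligand mRNA in all 6 libraries, and Tgfb3 came after it with 10.9% to 33.4%. Tgfb2 held 6.44% ± 0.919 with PCL and 8.73% ± 2.13 with PLLARS and ultrasound (SD, n = 3 each). Exact permutation tests of the shares, two-sided, gave p = 0.9 for Tgfb1, 0.3 for Tgfb2 and 0.9 for Tgfb3, with 0.9 for each after adjustment over the 3 isoforms and 0.1 the smallest p possible. The Tgfb1 share was 2.74 percentage points lower in the PLLARS_US group, but 3.26 points higher without PCL replicate 3 and 3.36 points higher without PLLARS_US replicate 3.

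**Figure D2:**
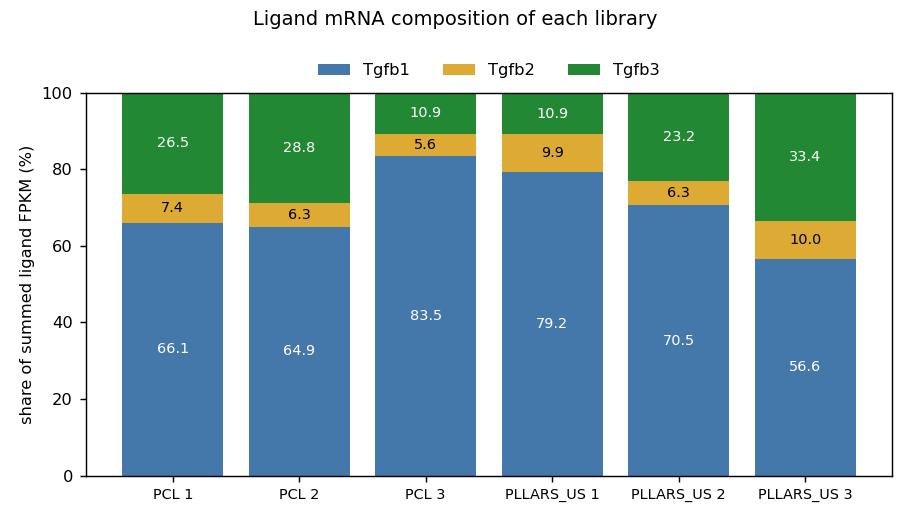
Share of each ligand gene in the summed FPKM of Tgfb1, Tgfb2 and Tgfb3, in percent, 1 bar per library with the shares printed in it. The Tgfb3 share is 10.9% in both muscle-rich libraries and at least 23.2% in the other 4.

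Ltbp1 encodes the binding protein that is disulfide-linked to the latent ligand and places it in the matrix. Its FPKM was 32.9, 26.5 and 9.40 in PCL replicates 1 to 3 and 18.8, 40.5 and 46.0 in PLLARS_US replicates 1 to 3. Within each group the muscle-rich library was lowest, and PLLARS_US replicates 2 and 3 lay above all PCL libraries. The means were 22.9 ± 12.1 and 35.1 ± 14.4 FPKM (SD, n = 3 each). The log2 difference was 0.67 (95% interval -0.64 to 1.97, limma adjusted p 0.877). It was 0.15 without PCL replicate 3 and 1.05 without PLLARS_US replicate 1. The summed level of the Schwann cell lineage markers was also higher in PLLARS_US replicates 2 and 3, at 1211 and 1254 FPKM, than in PCL replicates 1 and 2, at 793 and 788, and in PCL replicate 3 and PLLARS_US replicate 1, at 359 and 363. Its part in the Ltbp1 difference was not tested.

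Ltbp2, which belongs to the same family but does not bind latent TGF-beta and is a matrix protein of elastic fibres, went the other way. It had 15.0, 13.2 and 2.56 FPKM in PCL replicates 1 to 3 and 2.48, 7.94 and 7.01 in PLLARS_US replicates 1 to 3. The muscle-rich libraries were again lowest, with nearly the same value in each group, and PCL replicates 1 and 2 were highest. The log2 difference was -0.56 (95% interval -2.20 to 1.07, limma adjusted p 0.935). It ran from -1.26 without PCL replicate 3 to -0.14 without PLLARS_US replicate 1.

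Without both muscle-rich libraries, leaving 2 against 2, the log2 difference was 0.54 (limma p 0.0168) for Ltbp1 and -0.83 (limma p 0.00202) for Ltbp2. At that setting 13.7% of 13706 tested genes had an unadjusted p under 0.05, against these 2 of 10, and neither passed the adjusted threshold. Groups without overlap were then seen in 6 of the 10 genes and in 49.3% of all tested genes. The shares among the 10 were thus near those of the table as a whole. Each group of this setting still held 1 library low in myelin markers, PCL replicate 1 and PLLARS_US replicate 2.

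**Figure D3:**
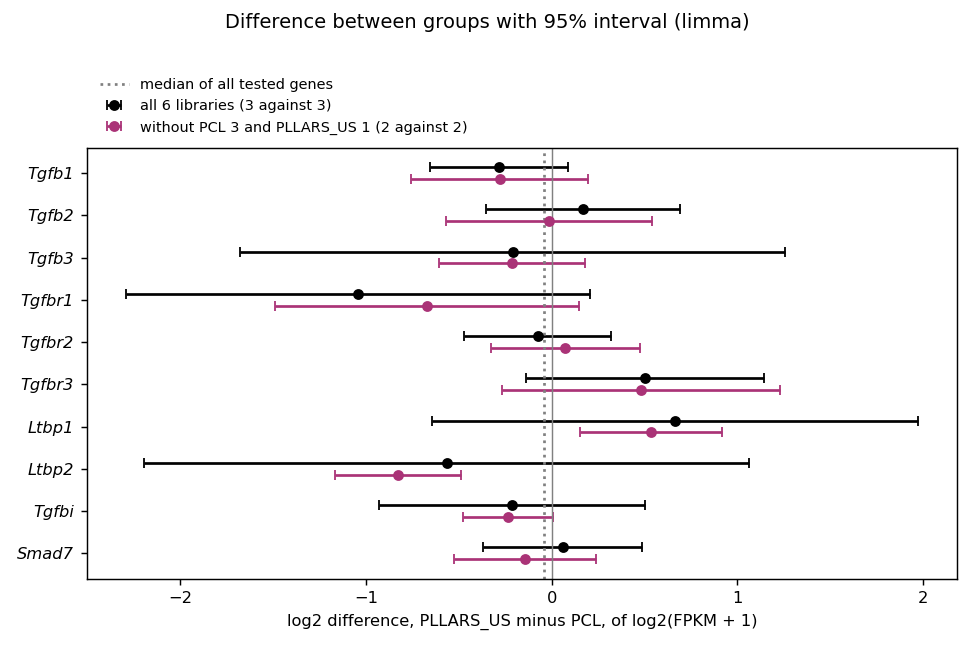
Log2 difference (PLLARS_US minus PCL, on log2(FPKM + 1)) of each of the 10 genes with its 95% interval from limma, with all 6 libraries in black and without the muscle-rich libraries in purple; the dotted line is the median of all tested genes, -0.04. With all libraries each interval spans 0, and without the muscle-rich libraries those of Ltbp1 (0.54) and Ltbp2 (-0.83) do not, both unadjusted.

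Of the receptors, Tgfbr1 encodes the type I chain, the kinase that phosphorylates SMAD2 and SMAD3. The authors place the gene (ENSRNOG00000007036) at 63050758 to 63119635 of chromosome 5, plus strand. Its FPKM was 35.6, 49.4 and 132 in PCL replicates 1 to 3 and 37.6, 33.9 and 19.9 in PLLARS_US replicates 1 to 3. PCL replicate 3 was far above the rest, and PCL replicate 1 lay inside the range of the PLLARS_US group. The means were 72.4 ± 52.2 and 30.5 ± 9.35 FPKM (SD, n = 3 each), a 2.38-fold lower mean in the PLLARS_US group. The log2 difference was -1.04 (95% interval -2.29 to 0.21, limma adjusted p 0.793), and it was -0.50 without PCL replicate 3.

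Markers of giant cells and osteoclasts moved with Tgfbr1. Their mean log2(FPKM + 1) was 8.02 in PCL replicate 3, 6.66 in PCL replicate 2, 6.34 in PLLARS_US replicate 1, 5.61 in PCL replicate 1, 5.34 in PLLARS_US replicate 2 and 4.17 in PLLARS_US replicate 3, the same order of libraries as that of Tgfbr1. Not every marker kept this order: Ocstamp had 15.7 FPKM in PLLARS_US replicate 1 and 4.95 in PCL replicate 2. Of the marker lists compared, this list had the highest Pearson r with Tgfbr1, 0.96 over 6 libraries. Its r with Ltbp1 was -0.93. The list had 7 of 8 markers in the table, none at 0, and a summed level of 1269 to 7977 FPKM among the PCL libraries and 501 to 2598 among the others. Its part in the Tgfbr1 difference was not tested. General macrophage markers, 8 of 8 in the table and none at 0, had overlapping sums of 860 to 1307 FPKM with PCL and 841 to 1267 with PLLARS and ultrasound. Within that list Aif1 (36.4 ± 6.32 against 51.8 ± 7.16 FPKM, SD, n = 3 each) and Adgre1 (30.2 ± 5.75 against 39.6 ± 3.94) lay higher in the PLLARS_US group without overlap. Their limma adjusted p was 0.638 and 0.751, and these 2 of 8 (25%) stand beside 14.4% of all tested genes without overlap. The means of Cd163, Mrc1 and C1qa were higher in the PLLARS_US group and those of Csf1r, Cd68 and Itgam lower, all with overlap.

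Tgfbr2, the type II chain that binds the ligand first, varied least among the 10 genes. It had 124, 158 and 164 FPKM in PCL replicates 1 to 3 and 126, 141 and 154 in PLLARS_US replicates 1 to 3. The groups overlapped, with a log2 difference of -0.08 (95% interval -0.47 to 0.32). The ratio of Tgfbr1 to Tgfbr2 FPKM was 0.288, 0.314 and 0.805 in PCL replicates 1 to 3 and 0.298, 0.241 and 0.129 in PLLARS_US replicates 1 to 3. The type II mRNA was the more abundant in every library, and the ratios overlapped between groups. The mean log2 ratio was -1.26 ± 0.823 for PCL and -2.25 ± 0.627 for PLLARS_US (SD, n = 3 each; exact permutation test, two-sided, p = 0.2, smallest possible 0.1). The difference of -0.99 became -0.52 without PCL replicate 3 and -0.64 without PLLARS_US replicate 3.

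Tgfbr3 encodes betaglycan, a co-receptor that presents the ligand, above all the product of Tgfb2, to the type II chain. Its FPKM was 36.9, 53.2 and 32.1 in PCL replicates 1 to 3 and 47.4, 50.3 and 76.9 in PLLARS_US replicates 1 to 3. PLLARS_US replicate 3 was highest, and PCL replicate 2 lay above the other PLLARS_US libraries. The means were 40.7 ± 11.0 and 58.2 ± 16.3 FPKM (SD, n = 3 each), with a log2 difference of 0.50 (95% interval -0.14 to 1.14, limma adjusted p 0.811).

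Of the responsive genes, Tgfbi encodes an adhesive matrix protein named for its induction by TGF-beta and was the most abundant of the 10. It had 315, 307 and 186 FPKM in PCL replicates 1 to 3 and 165, 268 and 260.2 in PLLARS_US replicates 1 to 3. The muscle-rich libraries were lowest in each group, and PCL replicates 1 and 2 were highest. The log2 difference was -0.21 (95% interval -0.93 to 0.50).

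Smad7 encodes the inhibitory SMAD that the pathway induces to shut off its own receptors. It had the lowest level of the 10, with 5.61, 4.89 and 3.98 FPKM in PCL replicates 1 to 3 and 5.88, 4.48 and 4.84 in PLLARS_US replicates 1 to 3. The groups overlapped, and the log2 difference was 0.06 (95% interval -0.37 to 0.49). That interval excludes a 2-fold change of FPKM + 1 in either direction, as do those of Tgfb1, Tgfb2, Tgfbr2 and Tgfbi, while those of Tgfb3, Tgfbr1, Tgfbr3, Ltbp1 and Ltbp2 do not.

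Tgfb3, Ltbp2 and Tgfbi shared a pattern over the 6 libraries, with Pearson r on log2(FPKM + 1) of 0.94 for Tgfb3 and Ltbp2, 0.97 for Tgfb3 and Tgfbi and 0.98 for Ltbp2 and Tgfbi, while Tgfb1 had -0.14, 0.14 and 0.10 with Tgfb3, Ltbp2 and Tgfbi. These points share tissue makeup and number only 6. Together with Ltbp1 they are the 4 of 10 genes (40.0%) that were lower in both muscle-rich libraries than in the other 4, a pattern that 32.3% of all tested genes had. The promoters of these 4 genes are shown, with that of Tgfb1, whose level did not follow this pattern, for comparison. The RefSeq table of build GRCr8 matched 10 of 10 genes, and the 250 bases before the start are printed for these genes, 5′ to 3′ on the strand of the gene. Capitals mark GTCT on either strand, the core box bound by SMAD proteins, and GGCGCC, a GC-rich SMAD motif. The windows are chr6:111456947-111457196 on the minus strand, chr6:110257299-110257548 on the minus strand, chr17:7990114-7990363 on the minus strand, chr6:26177302-26177551 on the minus strand and chr1:90324062-90324311 on the plus strand, in the order of the lines.
Tgfb3: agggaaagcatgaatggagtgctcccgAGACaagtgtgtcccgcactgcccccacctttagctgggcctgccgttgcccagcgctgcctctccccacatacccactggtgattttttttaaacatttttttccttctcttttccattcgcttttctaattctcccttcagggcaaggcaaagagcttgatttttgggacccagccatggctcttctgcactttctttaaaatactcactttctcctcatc
Ltbp2: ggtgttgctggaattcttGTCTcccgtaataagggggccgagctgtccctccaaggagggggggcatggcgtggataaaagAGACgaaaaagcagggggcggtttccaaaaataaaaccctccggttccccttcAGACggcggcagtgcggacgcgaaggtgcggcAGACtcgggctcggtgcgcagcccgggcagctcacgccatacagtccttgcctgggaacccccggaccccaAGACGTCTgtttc
Tgfbi: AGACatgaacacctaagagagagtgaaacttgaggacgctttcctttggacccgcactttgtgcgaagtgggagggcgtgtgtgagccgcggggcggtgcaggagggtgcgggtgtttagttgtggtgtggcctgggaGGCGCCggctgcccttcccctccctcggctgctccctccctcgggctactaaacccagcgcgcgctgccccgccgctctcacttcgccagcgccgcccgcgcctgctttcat
Ltbp1: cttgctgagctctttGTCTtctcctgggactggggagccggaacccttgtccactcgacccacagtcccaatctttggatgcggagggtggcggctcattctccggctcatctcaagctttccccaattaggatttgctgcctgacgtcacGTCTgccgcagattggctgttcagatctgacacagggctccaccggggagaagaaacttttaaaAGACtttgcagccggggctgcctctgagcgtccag
Tgfb1: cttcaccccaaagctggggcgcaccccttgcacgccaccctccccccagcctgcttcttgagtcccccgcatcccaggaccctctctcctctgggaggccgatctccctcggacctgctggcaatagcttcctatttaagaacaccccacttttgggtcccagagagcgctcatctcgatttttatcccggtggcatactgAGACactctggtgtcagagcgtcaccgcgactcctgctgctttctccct
Ltbp2 held 6 copies of GTCT counting both strands, Ltbp1 held 3, and Tgfb3, Tgfbi and Tgfb1 held 1 each. GGCGCC was found once in Tgfbi and in 0 of the other 4. GTCT occurs by its shortness in 84% of 33469 promoter windows of this length, and in 7 of the 10 genes described. GGCGCC occurs in 8.69% of windows and in 4 of the 10, namely Tgfbr1, Tgfbr3, Tgfbi and Smad7. The palindromic SMAD-binding element GTCTAGAC, which contains GTCT on both strands, occurs in 0.173% of windows and in 0 of the 10, Smad7 included. TATAAA, found in 12.9% of windows, was also in 0 of the 10, while TGACGTCA, the cAMP response element, found in 1.59%, was in Ltbp1. The base composition of the printed windows differed, with 48.8% G or C in Tgfb3, 61.6% in Ltbp2, 65.6% in Tgfbi, 56.8% in Ltbp1 and 60.0% in Tgfb1.

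**Figure D4:**
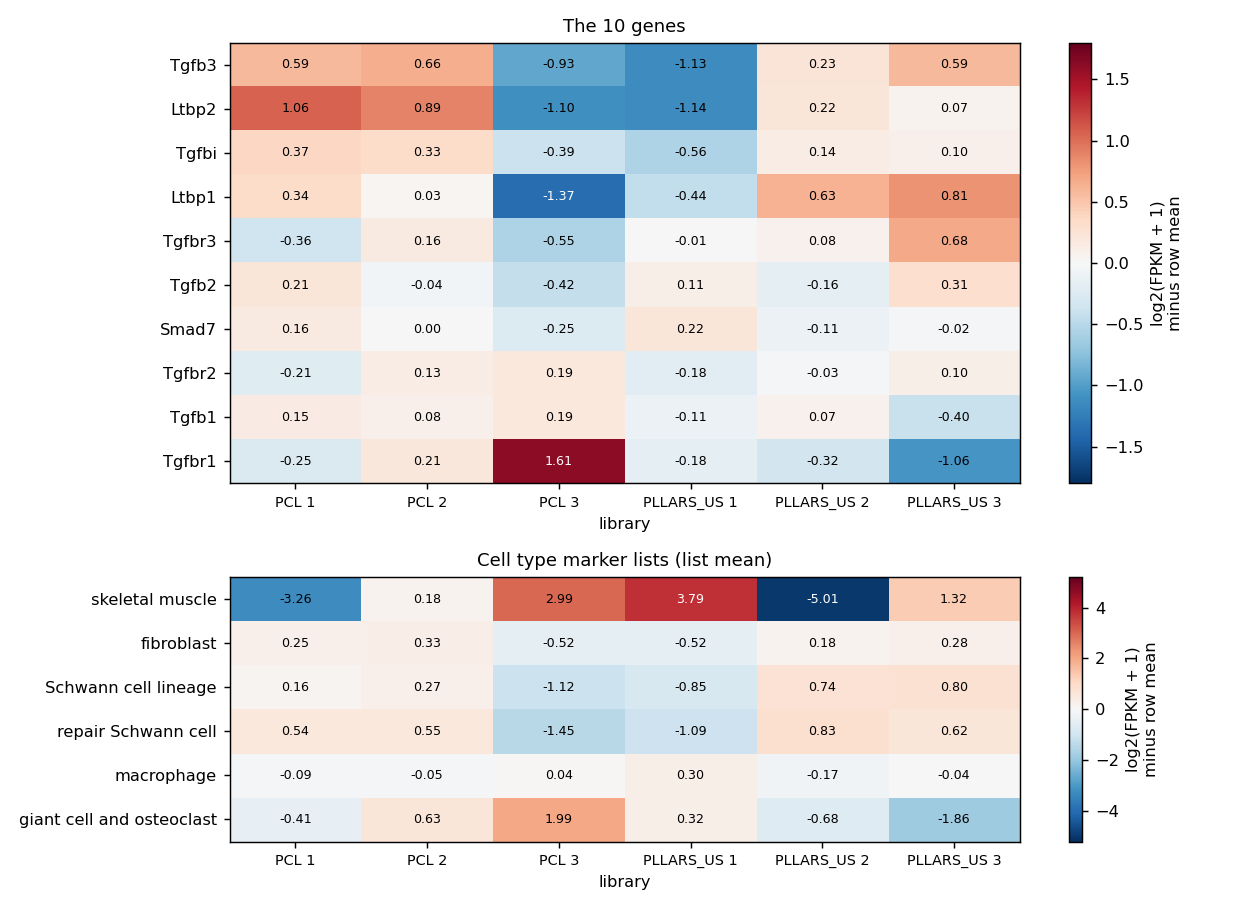
Log2(FPKM + 1) minus the mean of the row over the 6 libraries, for the 10 genes (top) and for the mean of 6 cell type marker lists (bottom), 1 column per library, each panel with its own colour scale. Tgfb3, Ltbp2, Tgfbi and Ltbp1 are below their means in PCL replicate 3 and PLLARS_US replicate 1, where the fibroblast and Schwann cell lists are also low, and Tgfbr1 follows the giant cell and osteoclast row.

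The genes of most similar pattern were taken as the 2 of about 10000 candidates with the highest Pearson r over the 6 libraries, a description only. For Tgfb3 they were Nckap5l (r 0.998) and Angptl2 (r 0.995), a secreted angiopoietin-like protein with 104, 114 and 44.8 FPKM in PCL replicates 1 to 3 and 38.0, 94.7 and 103 in PLLARS_US replicates 1 to 3. For Tgfbr1 they were Ankrd34c (r 0.999) and the sorting nexin gene Snx8 (r 0.996), and Snx8 was likewise highest in PCL replicate 3, at 49.0 FPKM. For Tgfb1 they were Sh3bgrl2 (r 0.991) and D430019H16Rik (r 0.983), and for Tgfb2 the water channel gene Aqp1 (r 0.958) and Rbm42 (r 0.956). For Tgfbr2 they were the ceramide synthase gene Cers2 and Rasal2 (r 0.981 each), and for Tgfbr3 Exd2 (r 0.988) and Pamr1 (r 0.985). Ltbp1 went with Ece1, the endothelin-converting enzyme gene, and Shisa5 (r 0.998 each), and Ltbp2 with B3gnt9 (r 0.996) and Htatsf1 (r 0.995). Tgfbi went with Cdc23 (r 0.999) and Rai14 (r 0.998), and Smad7 with Dnttip1 (r 0.996) and Mgst2 (r 0.989). High r of this kind was found for all 10 genes, with the lowest at 0.956. Taking the highest of about 10000 candidates over 6 libraries favours high r, so these values do not show that the genes are linked.

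Beyond these 10 genes, 82 others of the pathway were listed in 5 groups, and 76 of them could be tested. None passed with limma over all genes, 5 (6.58%) had an unadjusted p under 0.05 beside 7.00% of all tested genes, and 9 (11.8%) had no overlap between groups beside 14.4%. Their median log2 difference was -0.01.

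Of the genes for storage and release of the latent ligand, 14 of 16 were tested, and the median difference was -0.12. The mean log2 level under PLLARS_US was higher in 5 and lower in 9 (64.3%), beside 57.0% of all tested genes lower. Nrros, a surface protein of myeloid cells that anchors latent TGF-beta 1, had 29.8, 35.7 and 51.1 FPKM in PCL replicates 1 to 3 and 26.6, 23.9 and 24.6 in PLLARS_US replicates 1 to 3. All PLLARS_US values were below all PCL values, with a log2 difference of -0.58 (limma adjusted p 0.65). Furin, the protease that cuts the propeptide from the ligand, had 66.7 ± 6.16 FPKM against 49.8 ± 9.01 (SD, n = 3 each), also without overlap. Its log2 difference was -0.43 (limma adjusted p 0.692). By level the list was led by the proteoglycan gene Dcn, with 1167 ± 389 against 1627 ± 592 FPKM, and the integrin chain gene Itgb1, with 300 ± 50.8 against 315 ± 92.9.

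Of the receptor complex and SMAD genes, 11 of 12 were tested, 5 higher and 6 lower (54.5%, beside 57.0% of all tested genes), with a median of -0.02. Eng, which encodes endoglin, a co-receptor of endothelial cells, had 64.3, 59.8 and 60.1 FPKM in PCL replicates 1 to 3 and 35.8, 55.2 and 44.8 in PLLARS_US replicates 1 to 3. The groups did not overlap, and the log2 difference was -0.45 (limma adjusted p 0.692). The endothelial markers, 6 of 7 in the table and none at 0, had summed levels of 143 to 211 FPKM with PCL and 131 to 186 with PLLARS and ultrasound. Within that list Tie1 (49.4 ± 5.05 against 31.3 ± 4.10 FPKM, SD, n = 3 each) lay lower in the PLLARS_US group without overlap. Kdr (7.55 ± 2.33 against 11.8 ± 1.67) lay higher there without overlap, and the rest overlapped. The limma adjusted p was 0.430 for Tie1 and 0.702 for Kdr, and these 2 of 6 (33.3%) stand beside 14.4% of all tested genes without overlap. The part of these markers in the Eng difference was not tested. The model with the symbol Map3k7 had 2.70 ± 0.480 against 0.657 ± 0.711 FPKM (SD, n = 3 each) without overlap. It lay on chromosome 9 in the deposited table and had no Entrez identifier, while RefSeq places Map3k7 on chromosome 5, so it may not be that gene. The counts above include this model, among the 5 pathway genes with an unadjusted p under 0.05 (limma p 0.0103) and the 9 without overlap. Smad4, the shared partner of the signalling SMADs, had 56.2 ± 17.3 against 62.6 ± 17.7 FPKM.

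Of the inhibitor and feedback genes, 12 of 12 were tested, 6 higher and 6 lower (50%, beside 57.0% of all tested genes), with a median of 0.00042. Pmepa1, a membrane protein that the pathway induces and that restrains it, had 160.3, 133 and 42.4 FPKM in PCL replicates 1 to 3 and 47.5, 118 and 67.4 in PLLARS_US replicates 1 to 3. The low values included both muscle-rich libraries. Ppm1a, a phosphatase gene, had 45.9 ± 9.84 against 52.2 ± 17.8 FPKM.

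Of the genes known as SMAD targets, 23 of 23 were tested, with a median of -0.12 and 0 with an unadjusted p under 0.05. Of these, 9 were higher and 14 lower (60.9%), beside 57.0% of all tested genes lower. Groups without overlap were seen in 1 of the 23 (4.35%), lower under PLLARS_US, beside 14.4% of all tested genes. The fibrillar collagen gene Col1a1 had 1926 ± 777 against 1824 ± 122 FPKM (SD, n = 3 each) and Col3a1 had 2056 ± 622 against 1644 ± 416. Among other superfamily ligands and antagonists, 16 of 19 were tested, 9 higher and 7 lower (43.8%), with a median of 0.04. Bmp6, a bone morphogenetic protein gene, had 3.95, 1.98 and 2.25 FPKM in PCL replicates 1 to 3 and 5.58, 6.79 and 4.37 in PLLARS_US replicates 1 to 3. The groups did not overlap, with a log2 difference of 0.84 (limma adjusted p 0.579). In that list 4 of 16 genes (25%) had no overlap, 2 higher and 2 lower under PLLARS_US, beside 14.4% of all tested genes. The most abundant of that group were Fstl1, with 178 ± 69.0 against 180 ± 62.3 FPKM, and Bmp1, a procollagen protease gene, with 59.2 ± 20.4 against 39.6 ± 14.8.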

How the data were processed

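Poly(A)-enriched RNA of 6 rat sciatic nerves was sequenced as paired-end libraries on a NovaSeq instrument, per the labels' protocols; strand use is not stated. The values used are FPKM per gene model as deposited by the authors, 1 column per library, and a second sheet with the same values in 21028 of 21028 rows was not used. The submitters' processing notes list StringTie 1.3.3b, HISAT2 2.1.0, DESeq 1.28.0 and FastQC 0.11.5 without their roles, and name a human build although the identifiers are rat. Positions are therefore printed as deposited, and promoters come from RefSeq build GRCr8; 10 of 10 genes lay on the same chromosome in both.

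No counts were analysed here. Depth was read from 446 small single-exon models, where, below 50 fragments, 1124 of 1124 values were whole to within 0.03. Groups and replicate numbers came from the sample titles. With limma 3.58.1 in R 4.3.3, log2(FPKM + 1) was modelled on group alone with a mean-variance trend, after a filter at mean FPKM 1 that kept 13720 genes and 10 of the 10 described; the adjusted threshold was 0.05. Differences on this scale understate changes of low genes. Pathway genes were named if they had an unadjusted p under 0.05 and no overlap between groups (at most 4 a list), or were among the 2 most abundant of a list. The genes and lists were chosen with earlier results of these data known. The fit was checked on simulated data. Alternatives were other pseudocounts, filters, scalings, weights, a replicate block and left-out libraries.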

Additional observations from a re-analysis of the deposited data

How the results depend on the processing

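Each gene was refitted under 16 alternatives (15 for Smad7, which falls below a mean FPKM of at least 5). In 4 of them (no filter, mean FPKM of at least 5, no trend, replicate block) the difference equals the reported value by construction. Elsewhere Tgfb1, Tgfbr1, Tgfbr3, Ltbp1 and Ltbp2 kept their direction but not their size. None of the 10 passed the adjusted threshold in any setting, with the smallest adjusted p of the 10 in limma between 0.196 (array weights) and 1.000 (replicate block). Genes called over the table numbered 118 with array weights and from 0 to 3 when leaving out 1 library, the 3 being without PLLARS_US replicate 2. The count of the 10 with an unadjusted p under 0.05 was 1 with median-ratio scaling (Tgfbr3, beside 6.79% of all tested genes) and with array weights (Tgfbr1, beside 20.6%), 2 without both muscle-rich libraries (13.7%), and 0 to 1 leaving out 1 library (4.17% to 9.11%). Those without overlap numbered 0 with median-ratio scaling (14.3%), 6 without both muscle-rich libraries (49.3%) and 1 to 3 leaving out 1 library (18.8% to 34.5%). The median of the 10, -0.14, was 0.020 without PCL replicate 2 and 0.0046 without PLLARS_US replicate 1, and ran from -0.21 to 0.020 leaving out 1 library. Signs turned without both muscle-rich libraries for Tgfb2 (-0.013), Tgfbr2 (0.074) and Smad7 (-0.14), and with array weights for Smad7 (-0.057). Leaving out 1 library, Tgfb1 ran from -0.39 to -0.16, Tgfbr1 from -1.43 to -0.50, Tgfbr3 from 0.29 to 0.71, Tgfb3 from -0.73 to 0.30, Tgfbr2 from -0.2009 to 0.0013, Tgfbi from -0.460 to 0.012 and Smad7 from -0.048 to 0.157, and the differences in share from -7.96 to 3.36 percentage points for Tgfb1 and from -5.13 to 6.24 for Tgfb3. The Tgfb2 share and the receptor ratio kept their direction in these settings; the causes of these turns were not tested. The titles share replicate numbers, but same-numbered libraries did not deviate together (r -0.50, 0.15 and -0.32). Differences in tissue makeup between libraries could hide a pairing, so these values cannot settle whether the numbers pair the rats. The replicate block gave 0 calls and 0 of the 10 genes with an unadjusted p under 0.05. Fragments per gene were not computed, so the part of depth in each interval was not tested.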

Other observations

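The ratio between the binding protein genes separated the groups where neither gene did. Ltbp1 FPKM divided by Ltbp2 FPKM was 2.19, 2.01 and 3.67 in PCL replicates 1 to 3 and 7.58, 5.10 and 6.57 in PLLARS_US replicates 1 to 3. The PLLARS_US ratios were all above the PCL ratios, the muscle-rich ones included, and the mean log2 ratio was 1.34 ± 0.468 against 2.66 ± 0.289 (SD, n = 3 each). The pair was singled out after its values were seen, among 45 pairs of the 10 genes, and the ratio does not depend on library scaling. In 6 of the 45 pairs (13.3%) the groups did not overlap, beside 13.8% of all pairs of tested genes, so the count of separated pairs was near the background. The other separated pairs were Tgfb3 with Ltbp1, Tgfbr1 with Tgfbr3, Tgfbr2 with Tgfbr3, Tgfbr3 with Tgfbi and Ltbp1 with Tgfbi. The gap between the nearest libraries of the groups was 0.48 on the log2 scale for Ltbp1 with Ltbp2 and for Tgfb3 with Ltbp1, and 0.08 to 0.23 for the other 4.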
